A study of Mus musculus with 6 samples.

Results

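The NF-kB subunits and their inhibitors were followed through Trem2 knockdown in IL-4-treated RAW264.7 cells. The series calls these cells Arg1+ macrophages, but Arg1 had at most 3 counts in any of the 6 libraries, so the name is not used below. The group held 10 genes, matched by symbol among the 56092 gene symbols of the count table: the 5 subunit genes Rela, Relb, Rel, Nfkb1 and Nfkb2, the classical inhibitors Nfkbia, Nfkbib and Nfkbie, the nuclear inhibitor-like protein gene Nfkbiz, and Tnfaip3. All 10 passed the filter on low counts, and each symbol belonged to 1 gene identifier. The libraries came from RAW264.7, a mouse macrophage-like cell line, which carried either a control shRNA vector (shNC, 3 libraries) or an shRNA against Trem2 (shTrem2, 3 libraries). Every library, shNC included, came from cells given IL-4 at 20 ng/mL for 24 h and then debris of TCMK-1 mouse tubular epithelial cells for 24 h, so neither a library without IL-4 nor one without debris was compared. The cells were stable lentiviral lines carrying GFP and selected with puromycin, and the sources used here do not state which of the Trem2 shRNAs or which debris dose these libraries had. The labels call the libraries replicates without saying that they came from separate cultures, so p-values measure the spread between these libraries, which may be technical.

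NF-kB is a family of dimeric transcription factors built from the 5 subunits. In resting cells the IkB proteins hold the dimers in the cytoplasm. When Toll-like receptors or receptors of the TNF family are engaged, the IKK complex marks IkB for degradation, and the freed dimers enter the nucleus and switch on cytokine, chemokine and survival genes. Among the genes they switch on in macrophages are those of several of their own subunits and inhibitors. The measurements below are of RNA, so the processing of p105 and p100, the precursors made from Nfkb1 and Nfkb2, and the location of the subunits were not measured.

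The promoters of the members are shown as sequence only, and whether their motifs bear on the changes in RNA was not tested. RefSeq windows of 300 bases on GRCm38.p6, a build other than the GRCm39 that the submitters' processing notes name, were held for 7 of the 10 members, with none for Nfkb1, Relb and Nfkbiz. The 150 bases before the start are printed for 4 members with a match to the kB consensus, the 10-base motif that NF-kB dimers bind, and for Rela, which had none. They read 5′ to 3′ on the strand of the gene, and capitals mark matches on either strand, overlapping matches joined.
Rel (chr11:23770970-23771119, minus strand): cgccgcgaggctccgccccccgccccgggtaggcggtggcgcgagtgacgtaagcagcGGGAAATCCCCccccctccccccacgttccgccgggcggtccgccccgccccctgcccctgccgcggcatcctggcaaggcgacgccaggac
Nfkb2 (chr19:46304587-46304736, plus strand): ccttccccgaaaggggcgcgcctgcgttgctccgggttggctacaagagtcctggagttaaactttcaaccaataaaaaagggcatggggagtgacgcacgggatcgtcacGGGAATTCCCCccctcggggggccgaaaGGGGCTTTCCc
Nfkbia (chr12:55492648-55492797, minus strand): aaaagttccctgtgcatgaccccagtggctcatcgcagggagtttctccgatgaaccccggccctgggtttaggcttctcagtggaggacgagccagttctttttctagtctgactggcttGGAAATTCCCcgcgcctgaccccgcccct
Tnfaip3 (chr10:19015411-19015560, minus strand): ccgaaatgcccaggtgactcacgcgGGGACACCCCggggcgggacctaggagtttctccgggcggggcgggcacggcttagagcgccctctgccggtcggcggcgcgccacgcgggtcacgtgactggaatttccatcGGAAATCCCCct
Rela (chr19:5637391-5637540, plus strand): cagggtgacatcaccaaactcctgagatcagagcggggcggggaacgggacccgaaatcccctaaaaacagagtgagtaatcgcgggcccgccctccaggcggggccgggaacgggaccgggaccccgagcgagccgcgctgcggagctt
A match to the kB consensus lay in the windows of 5 of the 7 members, namely Rel, Nfkb2, Nfkbia, Nfkbie and Tnfaip3. Neither the window of Rela nor that of Nfkbib held one. Of these genes without a match, Nfkbib was lower in shTrem2 (log2 fold change -0.65) and Rela did not pass the test. Over all promoter windows, 5.14% of 27025 symbols held one, and among genes tested here 6.17% of 9600 symbols did. In Nfkbia the match began 29 bases before the start and in Rel 92. In the first Tnfaip3 window one began 125 and another 12 bases before the start, and the second Tnfaip3 window held no match. In the first Nfkb2 window matches began 39 and 11 bases before the start, and its other 2 windows held 2 further matches, 1 of them in their overlap. A looser form of the consensus, which includes it, was found in the same number of members, 5 of 7. It was found in 9.55% of all symbols and in 12.1% of those tested. TGANTCA, a loose form of the AP-1 motif TGACTCA or TGAGTCA, was found in Nfkb2, Nfkbie and Tnfaip3, against 8.97% of all symbols and 6.04% of those tested. The match in Nfkb2 read TGAATCA, which is neither of these. These motifs were chosen with the expression values known, other spellings had also been looked at, and a match is a string of letters rather than a measured site.

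The libraries held between 16054486 and 18290532 estimated counts in shNC and between 19545744 and 19835186 in shTrem2, so that every shTrem2 library was the deeper one. Trem2 itself fell from 127 ± 15.4 to 69.3 ± 9.41 CPM (SD, n = 3), which are counts scaled to the normalized library size, and from 178 ± 28.5 to 41.7 ± 4.14 FPKM. Of 10 macrophage markers 9 had at least 10 counts in every library, with Lyz2 highest and Mertk at or near 0, and their summed level was 5803 to 6762 CPM in shNC and 10883 to 11993 CPM in shTrem2. Most of that difference was Lyz2, without which the sum was 3283 to 3561 CPM in shNC and 4064 to 4187 CPM in shTrem2. By FDR 6 of the 9 tested macrophage markers were higher and 2 were lower, namely Itgam (466 and 270.3 CPM, log2 fold change -0.78) and Adgre1 (126 and 85.4 CPM, -0.56). Of all tested genes 28.8% were higher and 28.6% lower by FDR. Of 14 tubular epithelial markers, which bear on the debris, 8 were at 0 in every library and none exceeded 50 counts, with summed levels of 0.665 to 1.18 CPM in shNC and 2.11 to 2.82 CPM in shTrem2. The higher sum was due to Aqp1, without which it was 0.332 to 0.549 CPM in shNC and 0.103 to 0.209 CPM in shTrem2. Of 8 IL-4 response genes, 3 were at 0 everywhere and Arg1 had at most 0.157 CPM. The summed level of the IL-4 list was 64.4 to 69.1 CPM in shNC and 18.4 to 21.9 CPM in shTrem2. Most of it was Cish, without which the ranges overlapped, at 8.64 to 9.74 and 7.67 to 9.97 CPM. Of its 4 tested genes Cish and Il4ra were lower DEGs and Mrc1 was a higher one, beside 12.4% and 9.46% of all tested genes. The part of these markers in the results below was not tested. Fibroblast and endothelial markers reached at most 88 counts (Pecam1) and lymphocyte markers at most 7 (Cd79a).

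Under Trem2 knockdown the RNA of 9 of the 10 members was lower, by 1.13-fold (Nfkb1) to 2.48-fold (Nfkbiz), and Rela did not pass the test. The groups of libraries did not overlap for these 9 genes, whereas they overlapped for Rela. In the quasi-likelihood test of edgeR, with p-values adjusted by Benjamini-Hochberg over the 13528 tested genes, 9 members passed an FDR of 0.05 with lower levels and 0 with higher levels. Of all tested genes 57.4% passed, 28.6% with lower and 28.8% with higher levels, so a pass alone was common. By the stricter criteria of a DEG (FDR under 0.05 and a fold change over 1.5), 6 members were lower, beside 12.4% of tested genes, and 0 were higher, beside 9.46%, with 21.8% in either direction. The groups did not overlap for 63.8% of tested genes, with lower levels in shTrem2 for 31.7% and higher levels for 32.1%. The median log2 fold change of the members was -0.68, whereas that of all tested genes was -2.84e-05. A library gives the share of a gene in the RNA of a whole culture, so fewer cells expressing a gene and less RNA per cell cannot be told apart.

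**Figure D1:**
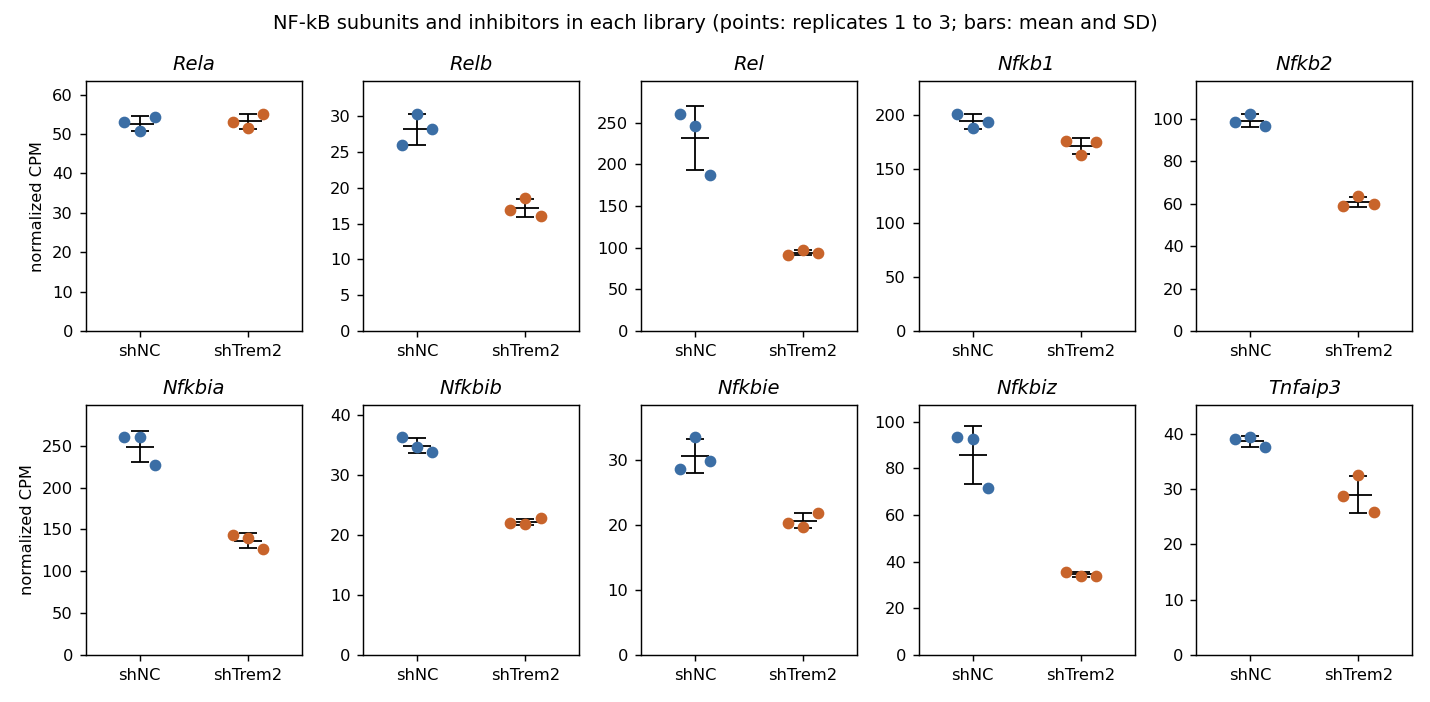
Normalized CPM (vertical axes, from 0) of each member in the 3 shNC and 3 shTrem2 libraries; points are replicates 1 to 3 from left to right, and bars give the mean and SD. The points of the groups are apart in 9 panels and mix in the Rela panel.

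Among the subunits, Rel fell most. Rel encodes c-Rel, a subunit with a transactivation domain that is abundant in blood cells. It had 261, 245 and 188 CPM in the shNC libraries and 91.7, 97.2 and 93.8 CPM in the shTrem2 libraries. All 3 shTrem2 libraries were below the lowest shNC library, and the spread was wider in shNC, where replicate 3 was lowest. Rel fell by 1.29 on the log2 scale (SE 0.093, edgeR adjusted p = 7.21e-08), which left 40.8% of the shNC level.

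Relb, which encodes the subunit that pairs with the product of Nfkb2 in the alternative pathway, had 26.0, 30.3 and 28.2 CPM in shNC and 16.9, 18.5 and 16.1 CPM in shTrem2. Nfkb2, whose product p100 is cut to the DNA-binding subunit p52, had 98.3, 102 and 96.4 CPM in shNC and 59.0, 63.5 and 59.8 CPM in shTrem2. Neither gene overlapped between the groups. Relb fell by 0.72 on the log2 scale (SE 0.087, edgeR adjusted p = 1.02e-05). Nfkb2 fell by 0.70 on the log2 scale (SE 0.054, edgeR adjusted p = 1.30e-07). The partners of the alternative pathway were thus both DEGs.

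The genes of the classical dimer, p50 and p65, changed little or not measurably. Nfkb1, which encodes p105 and from it p50, had 201, 188 and 193 CPM in shNC and 176, 163 and 175 CPM in shTrem2. The groups were apart by a narrow gap, and Nfkb1 fell by 0.18 on the log2 scale (SE 0.048, edgeR adjusted p = 0.00608), which left 88.4% of the shNC level. Rela, which encodes p65, had 52.9, 50.6 and 54.3 CPM in shNC and 53.1, 51.5 and 55.2 CPM in shTrem2. The libraries of both groups lay in 1 range. The log2 fold change of Rela was 0.02 (SE 0.058, edgeR adjusted p = 0.830), with a 95% interval from -0.11 to 0.14, and its sign turned under several alternatives. With only the largest transcript row of each gene counted, Nfkb1 was at -0.35 and no longer passed the threshold (edgeR adjusted p = 0.0501).

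**Figure D2:**
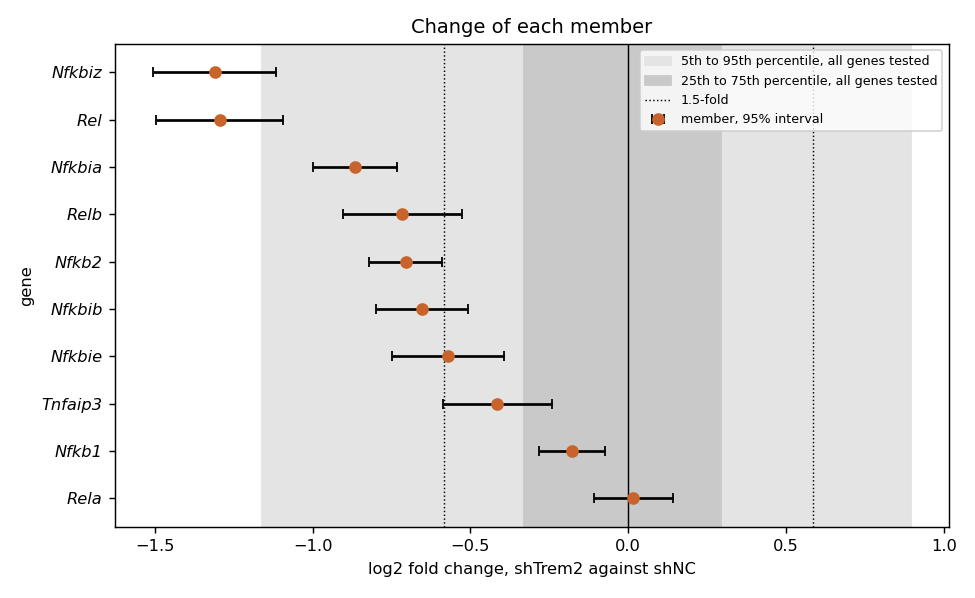
Log2 fold change of each member, shTrem2 against shNC (horizontal axis), with its 95% interval; shaded bands hold the middle of the 13528 tested genes (25th to 75th and 5th to 95th percentile), and dotted lines mark 1.5-fold. Nfkbiz and Rel lie below the 5th percentile of -1.16, and the interval of Rela spans 0.

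The 3 classical inhibitors fell together. Nfkbia encodes IkB alpha, the inhibitor that is degraded and remade in the course of each response. It had 259.9, 259.8 and 227 CPM in shNC and 143, 140.2 and 127 CPM in shTrem2. Each shTrem2 library was below every shNC library, and Nfkbia fell by 0.87 on the log2 scale (SE 0.062, edgeR adjusted p = 7.10e-08). Nfkbib, which encodes IkB beta, had 36.2, 34.6 and 33.8 CPM in shNC and 21.9, 21.8 and 22.7 CPM in shTrem2. It fell by 0.65 on the log2 scale (SE 0.068, edgeR adjusted p = 2.29e-06), with replicates close to each other in both groups. Nfkbie, which encodes IkB epsilon, had 28.5, 33.4 and 29.8 CPM in shNC and 20.3, 19.6 and 21.9 CPM in shTrem2. It fell by 0.57 on the log2 scale (SE 0.082, edgeR adjusted p = 4.61e-05). Its 1.49-fold difference lay just under the 1.5-fold criterion, so Nfkbie was not counted as a DEG although the groups did not overlap.

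Nfkbiz had the lowest log2 fold change of the 10 members. It encodes IkB zeta, a nuclear protein that works with p50 to switch on a set of secondary response genes, and so differs from the cytoplasmic inhibitors. It had 93.2, 92.6 and 71.4 CPM in shNC and 35.6, 34.0 and 34.0 CPM in shTrem2. All shTrem2 libraries were below the lowest shNC library, again replicate 3, and Nfkbiz fell by 1.31 on the log2 scale (SE 0.090, edgeR adjusted p = 5.08e-08). The 95% intervals of Nfkbiz and Rel overlapped, at -1.50 to -1.12 and -1.49 to -1.09.

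Tnfaip3 encodes A20, a ubiquitin-editing enzyme that shuts off signalling upstream of IKK. It had 39.1, 39.4 and 37.6 CPM in shNC and 28.7, 32.5 and 25.8 CPM in shTrem2, without overlap. It fell by 0.41 on the log2 scale (SE 0.080, edgeR adjusted p = 0.000563), which is less than 1.5-fold. The counts of Tnfaip3 were spread over transcript rows in unequal ways. The row with most counts held 91.3%, 82.4% and 88.9% of them in shNC and 45.5%, 69.3% and 71.3% in shTrem2, while the next row held 0%, 9.66% and 0% in shNC and 38.7%, 17.0% and 11.4% in shTrem2. With the largest row alone the log2 fold change of Tnfaip3 was -0.92. Relb showed a similar split, its largest row holding 93.4%, 83.8% and 88.4% in shNC and 66.0%, 72.0% and 75.05% in shTrem2, and with that row alone its log2 fold change was -1.04. Rel had a single row, and Nfkbia and Nfkbib had over 97% of their counts in 1 row in every library. The rows carry no transcript name, and which transcripts they are was not analysed here.

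Levels were set side by side with the authors' FPKM, which are scaled by transcript length. In shNC, Nfkbia was highest at 204 ± 14.3 FPKM (SD, n = 3) and Nfkb1 next at 67.8 ± 2.54 FPKM. Nfkbib (37.9 FPKM), Nfkb2 (36.6), Rel (32.4), Nfkbiz (26.1) and Rela (24.2) followed, and each of these overlapped with its neighbour in the order. Relb (15.3 FPKM) and Nfkbie (14.2) overlapped with each other, and Tnfaip3 was lowest at 11.2 ± 1.13 FPKM. In shTrem2, Nfkbia at 109 ± 7.06 FPKM and Nfkb1 at 60.1 ± 0.870 FPKM kept the first places, while Rela (23.0 FPKM) stood beside Nfkbib (23.5) and Nfkb2 (21.8), with overlap between neighbours. Rel came after them at 12.9 ± 0.406 FPKM without overlap with either neighbour. Nfkbiz (10.4 FPKM), Relb (9.46) and Nfkbie (9.36) overlapped in turn, and Tnfaip3 was again lowest at 7.62 ± 1.45 FPKM.

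The make-up of the subunit RNA was described by shares of the summed FPKM. The 5 subunits summed to 182, 177 and 169.7 FPKM in shNC and to 127, 126 and 129 FPKM in shTrem2. The share of Rel in this sum was 20.1%, 19.5% and 15.4% in shNC and 9.89%, 10.5% and 10.02% in shTrem2. The share of Nfkb1 was 38.1%, 36.6% and 40.7% in shNC and 47.8%, 46.8% and 47.2% in shTrem2, so that the shares of Rel and Nfkb1 went in opposite directions. The mean share of Rela was 13.7% in shNC and 18.0% in shTrem2, that of Nfkb2 20.7% and 17.1%, and that of Relb 8.71% and 7.44%. In shNC, Rel RNA was above Rela RNA, with a mean log2 ratio of 0.41 ± 0.238, and in shTrem2 it was below, with -0.83 ± 0.144. The log2 ratio of Relb to Rela was -0.66 ± 0.183 in shNC and -1.28 ± 0.227 in shTrem2, and that of Nfkb2 to Nfkb1 was -0.89 ± 0.103 and -1.47 ± 0.0708.

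The summed RNA of the classical inhibitors was lower in shTrem2 by a larger factor than that of the subunits, in a design too small for the test to pass. The 3 classical inhibitors summed to 264.96, 266 and 238 FPKM in shNC and to 146, 145 and 135 FPKM in shTrem2. Their log2 ratio to the subunit sum was 0.54, 0.59 and 0.49 in shNC and 0.20, 0.20 and 0.07 in shTrem2, a difference of -0.38 without overlap. Nfkbia made up most of the inhibitor sum, and without it the difference of the log2 ratio was -0.20. In the exact two-sided permutation test over 3 against 3 libraries, 8 of the 9 shares and ratios had p = 0.1, the smallest this design allows, with an adjusted p of 0.1125 over the 9 quantities. The share of Relb had an exact permutation p of 0.2, and the shares sum to 100% and are not independent.

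**Figure D3:**
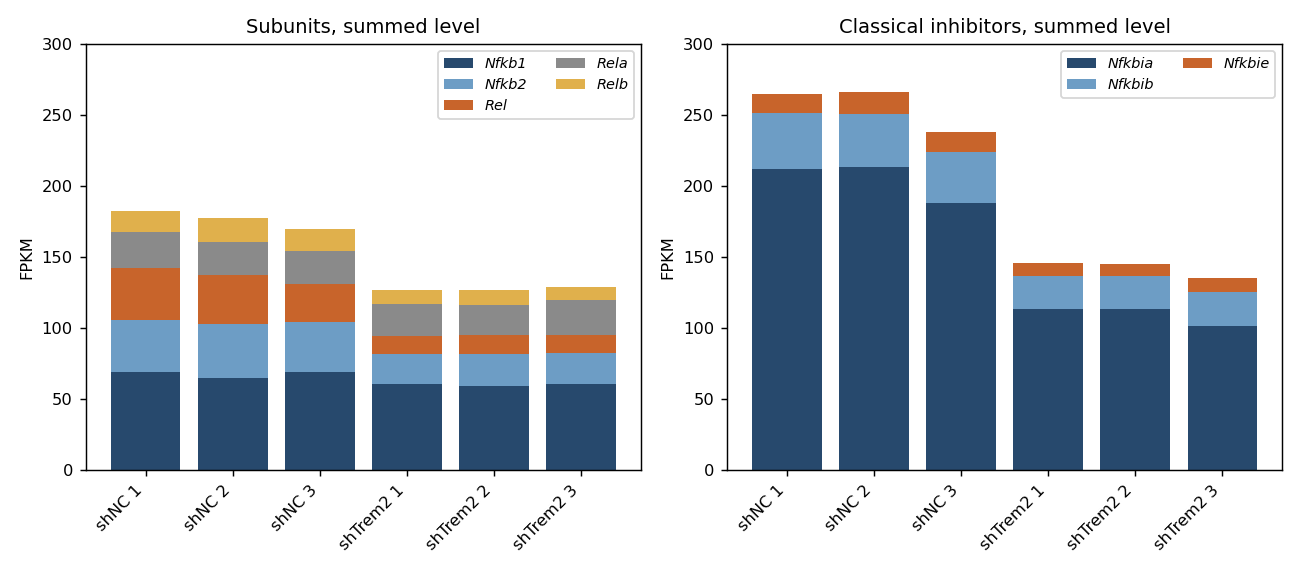
Summed FPKM (vertical axis, from 0) of the 5 subunits (left) and of the 3 classical inhibitors (right) in each library, 1 bar per library, with colours for genes. The subunit sum went from a mean of 176 to 127 FPKM and the inhibitor sum from 257 to 142 FPKM, and the band of Rel shrinks most among the subunits, from a mean of 32.4 to 12.9 FPKM.

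The rest of the pathway moved in both directions. Of 106 listed genes in 5 groups, 95 were tested, of which 51 passed the FDR with lower and 17 with higher levels, and 29 were DEGs with lower and 5 with higher levels. As shares of the tested genes these were 53.7% lower and 17.9% higher by FDR, beside 28.6% and 28.8% of all tested genes, and 30.5% lower and 5.26% higher as DEGs, beside 12.4% and 9.46%. Their median log2 fold change was -0.25. Among the IKK and upstream kinases, 12 of 12 were tested, 8 were lower and 2 higher by FDR, and the median was -0.27. Ikbke, which encodes an IKK-related kinase, had 132, 129.9 and 104 CPM in shNC and 23.2, 27.6 and 25.6 CPM in shTrem2, a log2 fold change of -2.26 (SE 0.094). Irak2, a kinase downstream of Toll-like receptors, had 167, 165 and 142 CPM in shNC and 47.7, 47.3 and 45.9 CPM in shTrem2, a log2 fold change of -1.75 (SE 0.066). Both were far below the shNC range in every shTrem2 library. Map3k8, which encodes a kinase held by p105, was at -0.87 and was the other DEG, so that 25% of this list were lower DEGs. Of the genes of the core IKK complex, the kinase gene Ikbkb at -0.27 and Ikbkg, its regulatory subunit gene, at -0.32 passed the FDR. The other kinase gene, Chuk, at -0.05 did not.

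Of the 19 adaptors and ubiquitin ligases, all were tested, 8 were lower and 3 higher by FDR, and the median was -0.12. By FDR 42.1% were thus lower and 15.8% higher, beside 28.6% and 28.8% of all tested genes. The DEGs were Traf1 (log2 fold change -1.04), an adaptor of TNF family receptors, Ticam1 (-0.88), the adaptor of Tlr3, and Birc3 (-0.85), a ubiquitin ligase. All 3 were lower in shTrem2, and their 15.8% share of the list was near the 12.4% of all tested genes that were lower DEGs.

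Receptors that feed NF-kB had 15 of 17 genes tested, with 2 lower and 7 higher by FDR and a median of 0.10. These were 13.3% and 46.7% of the tested receptors, beside 28.6% and 28.8% of all tested genes. Cd40, a TNF family receptor, had 26.2, 25.4 and 22.6 CPM in shNC and 4.17, 4.96 and 3.55 CPM in shTrem2, a log2 fold change of -2.55 (SE 0.127). Tlr3, which senses double-stranded RNA, had 5.46, 5.26 and 6.37 CPM in shNC and 18.7, 18.2 and 20.3 CPM in shTrem2, a log2 fold change of 1.74 (SE 0.116). Cd40 and Tlr3 thus moved in opposite directions, each without overlap. Tlr2 (0.92), a receptor for bacterial lipoproteins, Tlr7 (0.76), which senses single-stranded RNA, and Tnfrsf1a (0.62), the main TNF receptor gene, were the other DEGs, all higher in shTrem2, so that 26.7% of the list were higher DEGs, beside 9.46% of all tested genes.

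The other negative regulators, 19 of 19 tested, had 10 lower and 4 higher genes by FDR and a median of -0.22. These were 52.6% and 21.1% of the list, beside 28.6% and 28.8% of all tested genes. Bcl3, which encodes a nuclear IkB family protein like the product of Nfkbiz, had 11.4, 9.47 and 10.7 CPM in shNC and 2.19, 2.61 and 2.37 CPM in shTrem2, a log2 fold change of -2.13 (SE 0.158). Zc3h12a (-1.11), which encodes a nuclease that destroys cytokine mRNAs, Sigirr (-1.09), a damping receptor of the IL-1 receptor family, and Tnip1 (-0.78), a partner of A20, were the other DEGs. All 4 were lower in shTrem2, or 21.1% of the list, beside 12.4% of all tested genes that were lower DEGs.

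Inflammatory target genes had 30 of 39 genes tested, of which 23 were lower and 1 was higher by FDR, with a median of -0.93. These were 76.7% and 3.33% of the list, beside 28.6% and 28.8% of all tested genes. Among the 30 tested targets 18 (60%) were DEGs with lower levels, beside 12.4% of all tested genes. Only 1, Cxcl10, was a DEG with a higher level, at 1.20, beside 9.46%. This list, like the others, was chosen with earlier results of these data known. Ptgs2, the inducible cyclooxygenase gene, had 298, 278 and 177 CPM in shNC and 23.1, 22.1 and 21.3 CPM in shTrem2, a log2 fold change of -3.50 (SE 0.158). The chemokine gene Ccl3 had 867, 864 and 728 CPM in shNC and 211, 171 and 205 CPM in shTrem2, a log2 fold change of -2.07 (SE 0.082). Neither gene overlapped between the groups. Ccl4 (-1.88), a chemokine gene, Gadd45b (-1.72), a stress response gene, Nos2 (-1.69), the inducible nitric oxide synthase gene, and Csf1 (-1.68), a growth factor gene for macrophages, followed. Il1a, Il1b, Il6, Il12b, Cxcl1, Cxcl3, Ccl2, Csf2 and Vcam1 were too low to test, with at most 17 counts in a library.

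**Figure D4:**
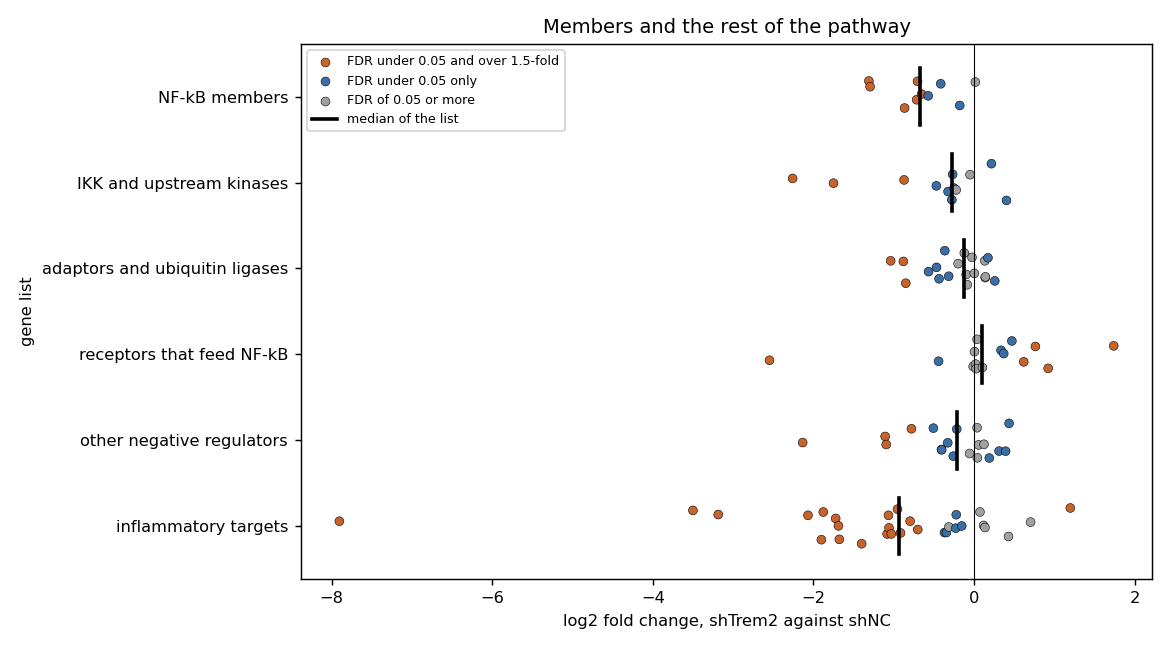
Log2 fold change, shTrem2 against shNC (horizontal axis), of each tested member and of each tested gene of the 5 pathway lists (rows); colours give the call and black bars the median of each list. Receptors are the only row with its median above 0, at 0.10, and the leftmost target, Lcn2, had at most 2 counts in a shTrem2 library, so its position is not a measured fold.

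In shNC the third library stood apart for several of these genes. Replicate 3 was the lowest shNC library in 6 of 10 members and in 21 of 30 inflammatory targets, compared with 35.4% of all tested genes. Rel in that library was at 74.2%, Nfkbiz at 76.8% and Nfkbia at 87.4% of the mean of shNC replicates 1 and 2. Trem2 was highest in that library, with 114, 122 and 144 CPM in shNC replicates 1, 2 and 3. Whether the level of Trem2 bears on these differences was not tested. Replicate 3 was the lowest shNC library for 55.7% of the DEGs lower in shTrem2 and for 17.7% of the DEGs higher in shTrem2. Without it, the log2 fold change of Rel was -1.42, that of Nfkbiz -1.43 and that of Nfkbia -0.93, and 7 members met the DEG criteria. The share of all tested genes that met them without this library was not counted, so the 7 have no background beside them.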

How the data were processed

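RNA-seq of 6 libraries, 3 shNC and 3 shTrem2, was analysed, grouped by the shRNA in the labels. Upstream, the authors used fastp for trimming, HISAT2 for alignment and StringTie for transcript assembly, from a stranded library. The submitters' processing notes name GRCm39, while the counting tool and annotation release are not given in the sources used here. The authors deposited estimated counts per transcript row (79.3% of nonzero values not whole) and FPKM per gene, which follow effective length. The group means among the deposited columns were not used.

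Estimated counts were summed per symbol and rounded. Rows without a symbol held 0.908% to 1.12% of counts and were left out. The limit set by a count of 0 is 3 counts, equal to 0.153 to 0.189 CPM, and covers counting error only. The fit was made with edgeR 4.0.16 under R 4.3.3 (TMM factors, filterByExpr by group, then glmQLFit and glmQLFTest), with the 2 groups as its only term, 13528 genes after filtering and Benjamini-Hochberg adjustment over all of them. The procedure was tested on simulated data. DEGs had an FDR under 0.05 and a fold change over 1.5. Standard errors are the log2 fold change divided by the square root of F. CPM are TMM-normalized. Shares and ratios of FPKM were compared by an exact two-sided permutation test in scipy 1.17.1. The kB consensus, a looser form of it and TGANTCA were searched on both strands.

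The members and lists were chosen with earlier results of these data known. All members are named, and from each pathway list up to 6 DEGs with the largest changes, if their log2 CPM averaged 1 or more, and from marker lists the highest and lowest. Chuk, Ikbkb, Ikbkg, Cxcl10, Lcn2, Itgam, Adgre1, Cish, Il4ra, Mrc1, Socs1, Lrp2 and the genes too low to test were singled out with their values known. Alternatives were other normalizations (RLE, upper quartile, library size only), filters (any gene with 1 count, or 10 counts in every sample), DESeq2 1.42.0, limma-voom, limma-trend (limma 3.58.1) on log2 FPKM with pseudocounts of 1 and 0.1, an effective-length offset, the largest transcript row only, a replicate block, leaving out each library and other fold thresholds.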

Additional observations from a re-analysis of the deposited data

How the results depend on the processing

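Over 18 alternatives each, the 9 lower members stayed lower, and all passed an FDR of 0.05 except Nfkb1 with only the largest transcript row, at -0.35. The log2 fold change of Rel ranged from -1.42 to -1.21, that of Nfkbiz from -1.43 to -1.23 and that of Nfkbia from -0.93 to -0.82. Rela passed in none. The log2 fold change of Rela turned negative with upper quartile normalization (-0.00361), library size only (-0.0180), limma-trend on log2(FPKM + 1) (-0.0755) and on log2(FPKM + 0.1) (-0.0785) and the effective-length offset (-0.0501), and ranged from -0.0200 to 0.0422 with 1 library left out; the cause was not tested. The log2 fold change of Map3k8 was -1.42 with the largest transcript row only, and the log2 fold change of Csf1 was -0.88 on log2(FPKM + 1). That of Trem2 was -0.87 in the main fit and -2.06 on log2(FPKM + 1). It was -2.07 with the effective-length offset and -2.15 with the largest transcript row only, so the depth of the knockdown depended on the measure. With a fold change over 2, 2 members were DEGs, Rel and Nfkbiz, both lower. Among pathway genes 2 were then higher, while Ptgs2 (-3.50), Cd40 (-2.55) and Ikbke (-2.26) were among those still lower. The share of all tested genes at this threshold was not counted. With no fold threshold, 51 pathway genes were lower and 17 higher. With glmTreat against 1.5-fold 2 were higher, and the lower ones are not given here. With a fold change over 1.4, a threshold chosen after seeing the data, 7 members were DEGs. Here too the share of all tested genes was not counted. Replicate numbers did not pair the libraries: same-numbered libraries correlated at 0.00618, -0.00441 and 0.00657 in their deviations from the group means. With the replicate number as a block, Rel was at -1.28, and 9 members passed the FDR and 6 were DEGs, as without the block. The share of all tested genes called was counted at the main settings only, so the counts with the block have no background beside them. On CPM, which are not per length, the difference in percent share of Rel in the 5 subunits was -14.3, compared with -8.18 on FPKM. With 3 libraries a group, exact tests on shares and ratios cannot go below 0.1. Fold changes are relative to the RNA of each library, and protein was not measured.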

Other observations

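Cish, a feedback gene of cytokine receptors that signal through STAT proteins, had 54.7, 59.6 and 59.9 CPM in shNC and 12.4, 12.0 and 10.7 CPM in shTrem2, a log2 fold change of -2.31 (SE 0.076). Il4ra, which encodes the receptor chain for IL-4, had 5.96, 5.21 and 5.60 CPM in shNC and 1.88, 2.24 and 2.37 CPM in shTrem2, a log2 fold change of -1.37 (SE 0.189). Mrc1, which encodes the mannose receptor, went the other way, with 0.310, 0.776 and 0.330 CPM in shNC and 3.23, 3.71 and 2.88 CPM in shTrem2, a log2 fold change of 2.76 (SE 0.342). None of these 3 genes overlapped between the groups, which was also so for 63.8% of all tested genes. Socs1, the other tested gene of the IL-4 list, was at 0.07 and did not pass the test. These genes were named after their values were seen. Aqp1, the tubular epithelial marker with the highest count, had 0.745, 0.332 and 0.275 CPM in shNC and 1.98, 2.61 and 2.01 CPM in shTrem2, a log2 fold change of 2.30 (SE 0.381). Lrp2, another tubular marker, had 0.372, 0.277 and 0.439 CPM in shNC and 0.156, 0.157 and 0.103 CPM in shTrem2, too few counts to be tested.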
